A study of Caenorhabditis elegans with 9 samples.

Results

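Maternal vitamin B12 was set against maternal vehicle in *Caenorhabditis elegans* larvae carrying the gk849 allele of *nhr-114*, and RNA of whole bodies was sequenced at the fourth larval stage (L4), the last before adulthood. The comparison uses 6 of the 9 libraries of the study: 3 of nhr-114(gk849) larvae whose mothers had received 8 µM B12, and 3 of nhr-114(gk849) larvae whose mothers had received vehicle. They were chosen by the genotype and treatment in the labels. The other 3 libraries, of wild-type larvae from vehicle-treated mothers, are given as a level beside them. All animals of both mutant groups carry gk849, the labels do not say which part of the gene it removes, and wild-type larvae of B12-treated mothers were not analysed here. B12 libraries and vehicle libraries mean those of the mutant throughout.

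Vitamin B12 is the cofactor of methionine synthase, encoded by *metr-1*, which remakes methionine from homocysteine, and of methylmalonyl-CoA mutase, encoded by *mmcm-1*, which completes the usual breakdown of propionate. Worms take B12 from bacteria, and embryos receive it from their mothers. When B12 is scarce, *C. elegans* switches on a B12-independent propionate shunt that begins with the acyl-CoA dehydrogenase *acdh-1*. Methionine is also the source of S-adenosylmethionine (SAM), with which *pmt-1* and *pmt-2* methylate phosphoethanolamine on the way to phosphatidylcholine, and loss of phosphatidylcholine is known to activate the lipogenic factor SBP-1. NHR-114 is a nuclear hormone receptor of the HNF4 family, known in *C. elegans* to drive methionine cycle genes and to protect the germ line on bacteria poor in B12.

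Libraries held 14461993 to 16659895 estimated counts, and 14798 of 20447 genes passed the filter on low counts. *nhr-114* itself (WBGene00003704, WBcel235 chromosome V, 4187202 to 4190008) had 3, 2 and 4 counts in the B12 libraries and 3, 4 and 4 in the vehicle libraries, against 6954, 8027 and 7436 in wild type, so both mutant groups were at the edge of detection. Markers of the main larval tissues were present: all 18 intestinal, all 22 body-wall muscle and all 34 neuronal markers passed the filter, and 4 of 11 markers of male neurons did. The labels do not state that replicates were grown as separate cultures, and p-values reflect the spread of these libraries alone, part of which may be technical. The groups also differed in how much sperm RNA they held. The spermatogenesis level, the mean over 86 tested sperm genes of log2 CPM, scaled to a mean of 0 and an SD of 1 over the 9 libraries, was 0.88, 1.03 and 0.74 in the B12 libraries, -0.59, -1.76 and -1.27 in the vehicle libraries and -0.03, 0.31 and 0.69 in wild type. All B12 libraries lay above all vehicle libraries, so within the mutant B12 and this level, which changes as L4 larvae age, cannot be told apart. In whole animals, more cells of a type and more RNA per cell cannot be told apart either.

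A large part of the mutant's measured transcriptome differed between maternal B12 and vehicle. Counts were compared with edgeR's quasi-likelihood test, and a gene was called at a Benjamini-Hochberg adjusted p under 0.05 over all genes tested. Of 14798 genes, 6866 (46.4%) were called, 3338 (22.6%) higher and 3528 (23.8%) lower with B12. The 3 B12 values did not overlap the 3 vehicle values for 8751 genes (59.1%). More rises than falls reached 2-fold: 2203 genes (14.9%) were called at least 2-fold higher and 1257 (8.49%) at least 2-fold lower, although 118 rose and 138 fell by 8-fold or more. Falls were commoner among abundant genes. With the genes cut into 5 equal bins of mean level, 591 of 2960 rose and 958 fell in the highest bin, and 943 of 2959 rose and 527 fell in the bin next to the lowest. With limma on log2(TPM + 1), a scale per transcript length without TMM scaling between libraries, 2727 genes were called higher and 4822 lower. There 36.1% of calls were rises, against 48.6% in the reported edgeR fit. Length-scaled counts with TMM scaling gave 3550 genes higher and 3107 lower, or 53.3% rises. The median log2 fold change of all genes was -0.16 on log2(TPM + 1) and -0.04 in the reported fit, and list medians are read against the latter.

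**Figure D1:**
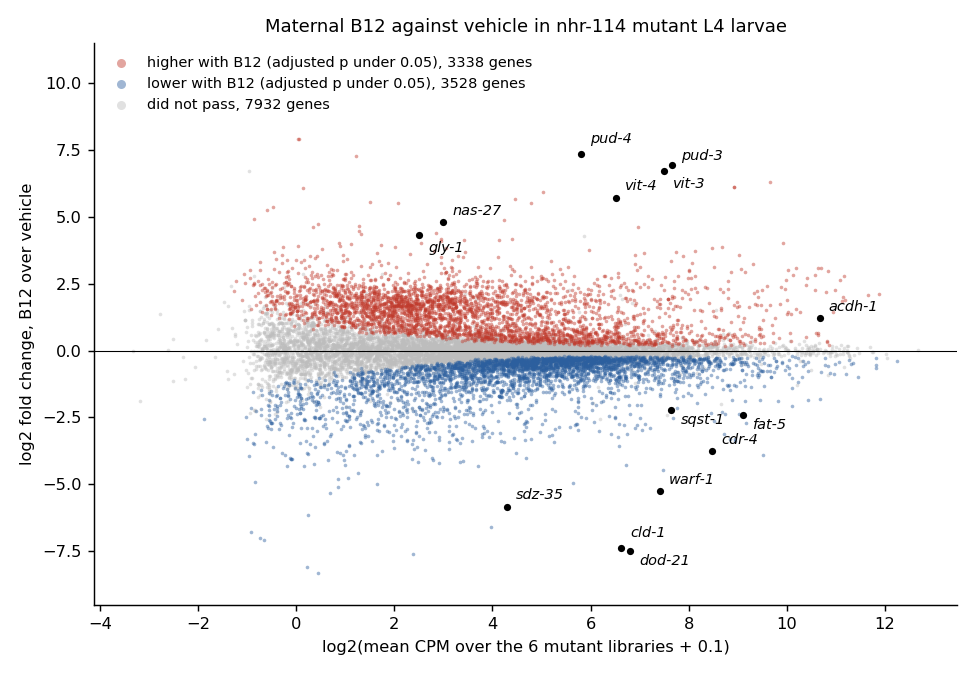
Each point is 1 of 14798 genes, with its log2(mean CPM over the 6 mutant libraries + 0.1) on the x axis and its log2 fold change, B12 over vehicle, on the y axis. Red points (3338) were called higher with B12, blue points (3528) lower, and grey points did not pass; named genes in black reach 7.33 for *pud-4* and -7.48 for *dod-21*.

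Compared with wild type, 1985 genes (13.4%) were called in the B12 libraries, 1077 (7.28%) higher and 908 (6.14%) lower, and 5420 (36.6%) in the vehicle libraries, 2713 (18.3%) higher and 2707 (18.3%) lower. These comparisons share libraries with one another and are given only as levels.

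The propionate shunt, which B12 shuts off in wild-type worms, rose in the mutant when mothers received B12. *acdh-1* (WBGene00016943, WBcel235 chromosome I, 6497436 to 6499560) had 2364, 2183 and 2261 CPM in the B12 libraries, 926, 1072 and 942 CPM in the vehicle libraries and 4010.3, 4187 and 4633 CPM in the wild-type libraries. The 3 B12 values were all above the vehicle values and all below wild type (log2 fold change 1.21 ± 0.09 SE, adjusted p = 9.00e-06). All 5 of 5 tested shunt genes rose, with a median log2 fold change of 0.81 against -0.04 over all genes: the hydratase *ech-6* by 0.81 ± 0.07, the hydrolase *hach-1* by 0.96 ± 0.10, the dehydrogenase *hphd-1* by 0.79 ± 0.10 and *alh-8*, the last enzyme of the shunt, by 0.36 ± 0.07. All 5 were still below wild type with B12 (median -0.81). The receptors that switch the shunt on did not move as a pair. *nhr-10* fell, at 26.6 ± 2.61 CPM with B12 and 41.9 ± 6.55 CPM with vehicle, with 27.2 ± 1.23 CPM in wild type (SD, n = 3 each). *nhr-68* rose by 0.37 ± 0.11 (adjusted p = 0.0168) and lost its call without B12 replicate 3 (adjusted p = 0.0519) or without vehicle replicate 3 (adjusted p = 0.0642).

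Genes that handle B12 or use it directly mostly did not pass the test. Of 9 tested, 1 rose and 2 fell. *mmcm-1* (chromosome III, 3903185 to 3907687) had 125, 127 and 132 CPM in the B12 libraries, 131, 137 and 140.3 CPM in the vehicle libraries and 144, 144 and 146 CPM in the wild-type libraries, so B12 and vehicle values overlapped below wild type (adjusted p = 0.343; 0.0229 in limma on log2(TPM + 1)). The propionyl-CoA carboxylase subunits *pcca-1* and *pccb-1* stood at -0.07 and -0.09 and did not pass; both were picked after their values were seen. *mrp-5*, the transporter by which the intestine exports B12 to the germ line and embryos, fell, averaging 170.0 ± 20.7 CPM with B12 and 256 ± 11.3 CPM with vehicle (SD, n = 3 each), and *cblc-1*, which encodes the homologue of the B12-processing protein MMACHC, changed by -0.66 ± 0.09. *pmp-5*, named for the peroxisomal transporter family and related to the human B12 transporter ABCD4, rose by 1.15 ± 0.15 to 61.7 CPM, against 619.7 CPM in wild type.

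In the methionine cycle, methionine synthase fell with maternal B12, and its reductase stayed far below wild type. *metr-1* (chromosome II, 10926561 to 10931078) had 254, 266 and 271 CPM in the B12 libraries, 571, 690.2 and 647 CPM in the vehicle libraries and 1026, 1063 and 1363 CPM in the wild-type libraries. The 3 groups did not overlap, and the B12 libraries were the furthest from wild type (log2 fold change over vehicle -1.27 ± 0.12, adjusted p = 3.39e-05). *mtrr-1*, the reductase that reactivates methionine synthase (chromosome II, 9285975 to 9289132), had 55.7, 54.9 and 55.1 CPM in the B12 libraries, 59.2, 61.7 and 61.5 CPM in the vehicle libraries and 612, 732 and 815 CPM in the wild-type libraries. It was far below wild type in both mutant groups and did not pass between them (adjusted p = 0.293). Of 9 genes tested, 3 rose and 4 fell. The falls were *metr-1*, the S-adenosylhomocysteine hydrolase *ahcy-1* (-0.64 ± 0.09), the adenosine kinase *adk-1* (-0.43 ± 0.08) and the SAM synthetase *sams-1* (-0.41 ± 0.11), whose call was lost without B12 replicate 1 (adjusted p = 0.0525) or vehicle replicate 2 (adjusted p = 0.0608). The SAM synthetases *sams-3* (0.39 ± 0.10) and *sams-4* (0.92 ± 0.13) rose. So did *msra-1*, a methionine sulfoxide reductase, by 0.95 ± 0.14, but to 75.4 CPM, against 1512 CPM in wild type. *adk-1* and *sams-3* were picked after their values were seen.

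Around the cycle, 4 of 14 folate genes rose (28.6%, against 22.6% over all genes) and 3 fell (21.4%, against 23.8%). On log2(TPM + 1) 3 folate genes rose and 5 fell. *mthf-1*, which makes the methyl-folate that methionine synthase uses, changed by -0.94 ± 0.09, to 148 CPM, against 283 CPM with vehicle and 749 CPM in wild type. *dao-3*, a mitochondrial methylenetetrahydrofolate dehydrogenase, rose by 1.13 ± 0.14. In transsulfuration and cysteine use 6 of 16 genes rose (37.5%) and 4 fell (25.0%, near the 23.8% over all genes). Cystathionine gamma-lyase *cth-1* rose, averaging 691 ± 76.1 CPM with B12 and 448 ± 47.7 CPM with vehicle, while *cbs-1*, the cystathionine beta-synthase before it (picked after its value was seen), changed by -0.48 ± 0.10 and stayed above wild type (1.86 ± 0.11, adjusted p = 3.46e-06). In the breakdown of tryptophan, phenylalanine and tyrosine 46.7% of genes rose and 13.3% fell, against 22.6% and 23.8% over all genes. The first enzyme of tryptophan breakdown, *tdo-2*, had 263, 329 and 370.3 CPM in the B12 libraries against 105, 103 and 98.5 CPM in the vehicle libraries, with no overlap, and 7 of 15 genes of the list rose, among them the formamidase *afmd-1* (1.28 ± 0.22). Tyrosine aminotransferase *tatn-1* changed by -0.78 ± 0.13.

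**Figure D2:**
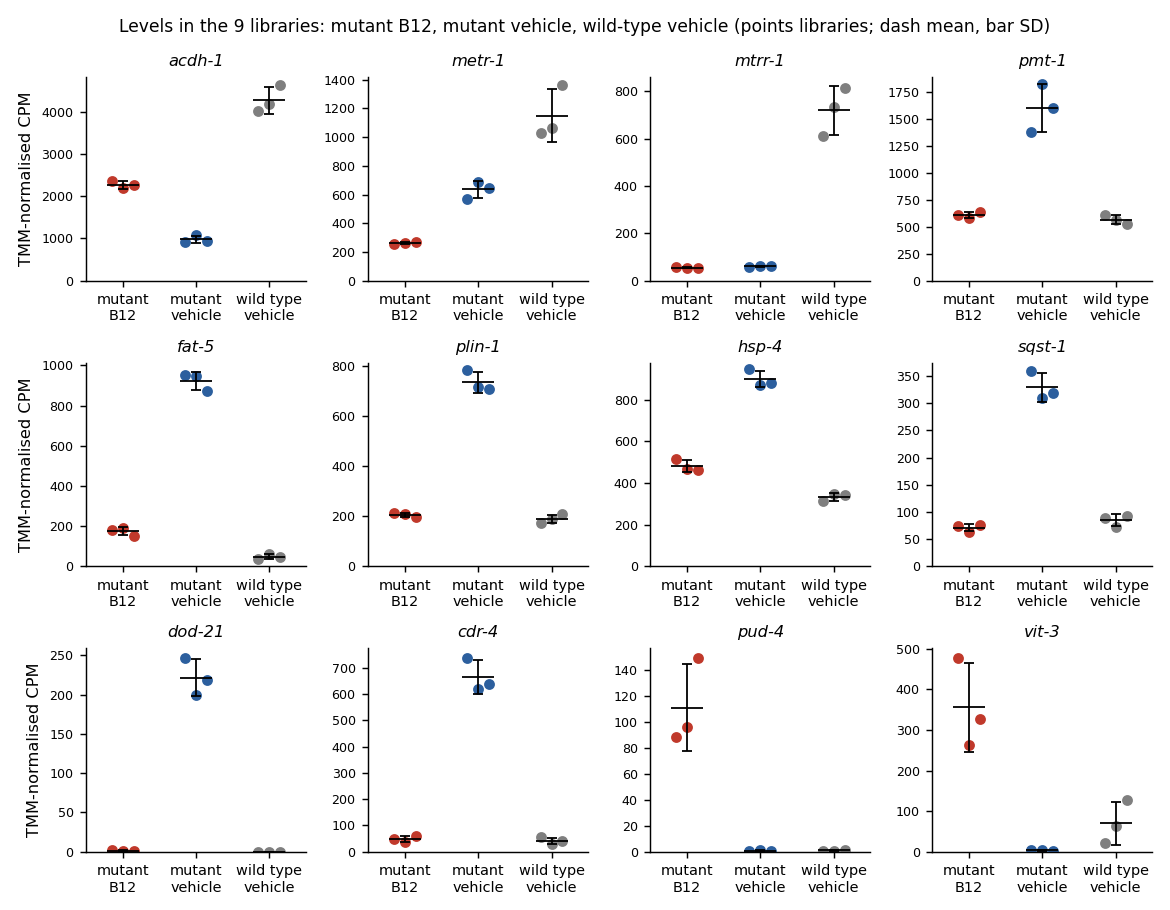
TMM-normalised CPM (y axes, linear, starting at 0) of 12 genes in the mutant B12, mutant vehicle and wild-type vehicle libraries (x axes), with 1 point per library, a dash at the mean and a bar of 1 SD. *metr-1* and *mtrr-1* stay below wild type with B12, *fat-5*, *plin-1* and *sqst-1* are higher with vehicle than with B12, and *plin-1* and *sqst-1* are near wild type with B12, and *pud-4* is high in the B12 libraries alone.

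Genes of lipid synthesis were lower with maternal B12 at nearly every step. *fat-5*, a desaturase that turns palmitic into palmitoleic acid (chromosome V, 17725004 to 17726818), had 181, 192 and 153 CPM in the B12 libraries, 950.4, 946 and 872 CPM in the vehicle libraries and 36.9, 61.6 and 45.4 CPM in the wild-type libraries. The vehicle values were all above the B12 values, which were all above wild type (-2.40 ± 0.17, adjusted p = 9.00e-06). In fatty acid synthesis and its SBP-1 regulators, 20 of 28 genes fell and 4 rose (median -0.77). Those that rose were the elongases *elo-3*, *elo-7*, *elo-8* and *elo-9*, singled out after their values were seen; *elo-9* (0.34 ± 0.12) lost its call without B12 replicate 1 or 3 or vehicle replicate 1 or 3, at adjusted p-values of 0.121, 0.0644, 0.102 and 0.0914. The list held 0.787%, 0.783% and 0.748% of the counts in the B12 libraries, 1.59%, 1.74% and 1.64% in the vehicle libraries and 0.780%, 0.721% and 0.707% in the wild-type libraries, so the B12 libraries were close to wild type and the vehicle libraries above both.

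Desaturation and elongation of polyunsaturated fatty acids fell as a whole, 6 of 6 genes (median -0.98). *fat-2*, the delta-12 desaturase that makes linoleic acid (chromosome IV, 13323873 to 13326395), had 772, 722 and 689 CPM in the B12 libraries, 2382, 2719 and 2543 CPM in the vehicle libraries and 748, 819 and 755 CPM in the wild-type libraries, with the B12 and wild-type values interleaved and the vehicle values above them (-1.81 ± 0.08, adjusted p = 8.69e-07). *fat-4*, the delta-5 desaturase, changed by -1.11 ± 0.12 and the elongase *elo-2* by -1.32 ± 0.11.

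Phosphatidylcholine synthesis fell too, 11 of 14 genes with none called higher (median -0.68). *pmt-1* (chromosome II, 5278090 to 5282523), which adds the first methyl group to phosphoethanolamine, had 608, 577 and 633 CPM in the B12 libraries, 1384, 1824 and 1600.1 CPM in the vehicle libraries and 609, 562 and 525 CPM in the wild-type libraries. B12 and wild-type values overlapped, and the vehicle values were above both. *pmt-2*, which adds the later methyl groups, did otherwise: it changed by -0.56 ± 0.08 and was below wild type in both mutant groups, at -1.02 ± 0.08 with B12 and -0.46 ± 0.08 with vehicle. The choline branch moved with *pmt-1*, the choline kinase *ckb-2* at 35.9, 29.1 and 42.1 CPM in the B12 libraries against 175, 204 and 179 CPM in the vehicle libraries and the cytidyl transferase *pcyt-1* at -0.82 ± 0.09.

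Several genes of stored fat fell as well. *plin-1*, the perilipin that coats lipid droplets (chromosome I, 7057192 to 7059351), had 212, 208 and 196 CPM in the B12 libraries, 784, 717 and 707 CPM in the vehicle libraries and 174, 188 and 207 CPM in the wild-type libraries, again with the vehicle values above both (-1.84 ± 0.09, adjusted p = 9.65e-07). The triglyceride lipase *atgl-1* (-1.14 ± 0.15), the phosphatidate phosphatase *lpin-1* (-1.47 ± 0.11) and the droplet factor *fitm-2* (-0.95 ± 0.10) fell, and the lysosomal lipase *lipl-1* rose (2.37 ± 0.24). In all 9 of 18 storage and lipolysis genes fell and 3 rose. Of 25 sphingolipid genes 8 fell (32.0%, against 23.8% over all genes) and 2 rose, or 1 without B12 replicate 1 or 2, vehicle replicate 1 or 3, or wild-type replicate 1 or 3 (median -0.14). Sphingolipid synthesis begins with serine palmitoyltransferase, and its genes *sptl-1* (-1.29 ± 0.09), *sptl-2* (-1.09 ± 0.14) and *sptl-3* (-1.22 ± 0.10) were among the falls. The sphingomyelinase gene *asm-3* rose, at 43.2, 32.1 and 34.0 CPM in the B12 libraries against 3.41, 8.72 and 3.39 CPM in the vehicle libraries.

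Fat breakdown held called genes of both directions. In mitochondrial beta-oxidation and carnitine transfer 5 of 20 genes rose (25.0%, near the 22.6% over all genes) and 7 fell. *cpt-3*, a carnitine palmitoyltransferase (chromosome III, 2082819 to 2088314), had 2.38, 2.69 and 3.63 CPM in the B12 libraries, 31.6, 51.7 and 41.5 CPM in the vehicle libraries and 2.01, 2.43 and 3.73 CPM in the wild-type libraries, which puts the B12 libraries at the wild-type level. The acyl-CoA dehydrogenase *acdh-8* (1.89 ± 0.24) and the trifunctional protein subunit *ech-1.1* (1.73 ± 0.25) rose. In peroxisomal beta-oxidation 3 of 19 genes rose (15.8%, under the share over all genes) and 6 fell (31.6%, against 23.8% over all genes). The falls were 4 without B12 replicate 2 and 8 on log2(TPM + 1). Among the rises, *acox-1.2*, an acyl-CoA oxidase of ascaroside synthesis (chromosome I, 12942280 to 12946588), had 314, 277 and 282 CPM in the B12 libraries, 57.0, 57.5 and 46.1 CPM in the vehicle libraries and 267, 376 and 244 CPM in the wild-type libraries. Here B12 and wild type overlapped and vehicle was lower (2.44 ± 0.16). Peroxisome assembly genes of the prx family fell, 9 of 11, or 5 without vehicle replicate 2.

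In central carbon metabolism 15 of 27 genes of glycolysis, gluconeogenesis and the glyoxylate shunt fell and 2 rose (median -0.32). The trehalose synthase *tps-1* changed by -1.82 ± 0.16, the aldolase *aldo-1* by -1.12 ± 0.09 and the isomerase *gpi-1* by -0.92 ± 0.08. In the citrate cycle list 10 of 26 fell, 5 or 6 without B12 replicate 2, vehicle replicate 2 or vehicle replicate 3 and 19 on log2(TPM + 1), led by the NADP-dependent isocitrate dehydrogenase *idh-1*, at 373, 357 and 424 CPM in the B12 libraries against 1281, 1572 and 1427 CPM in the vehicle libraries. The succinyl-CoA synthetase subunits *sucl-2* (0.54 ± 0.08) and *sucg-1* (0.63 ± 0.10), which turn succinyl-CoA into succinate, rose. Respiratory chain genes mostly did not pass: 7 of 50 rose, 4 without vehicle replicate 2 and 3 without vehicle replicate 3, and 4 fell, 7 without wild-type replicate 1 (median -0.01), while on log2(TPM + 1) 3 rose and 19 fell.

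**Figure D3:**
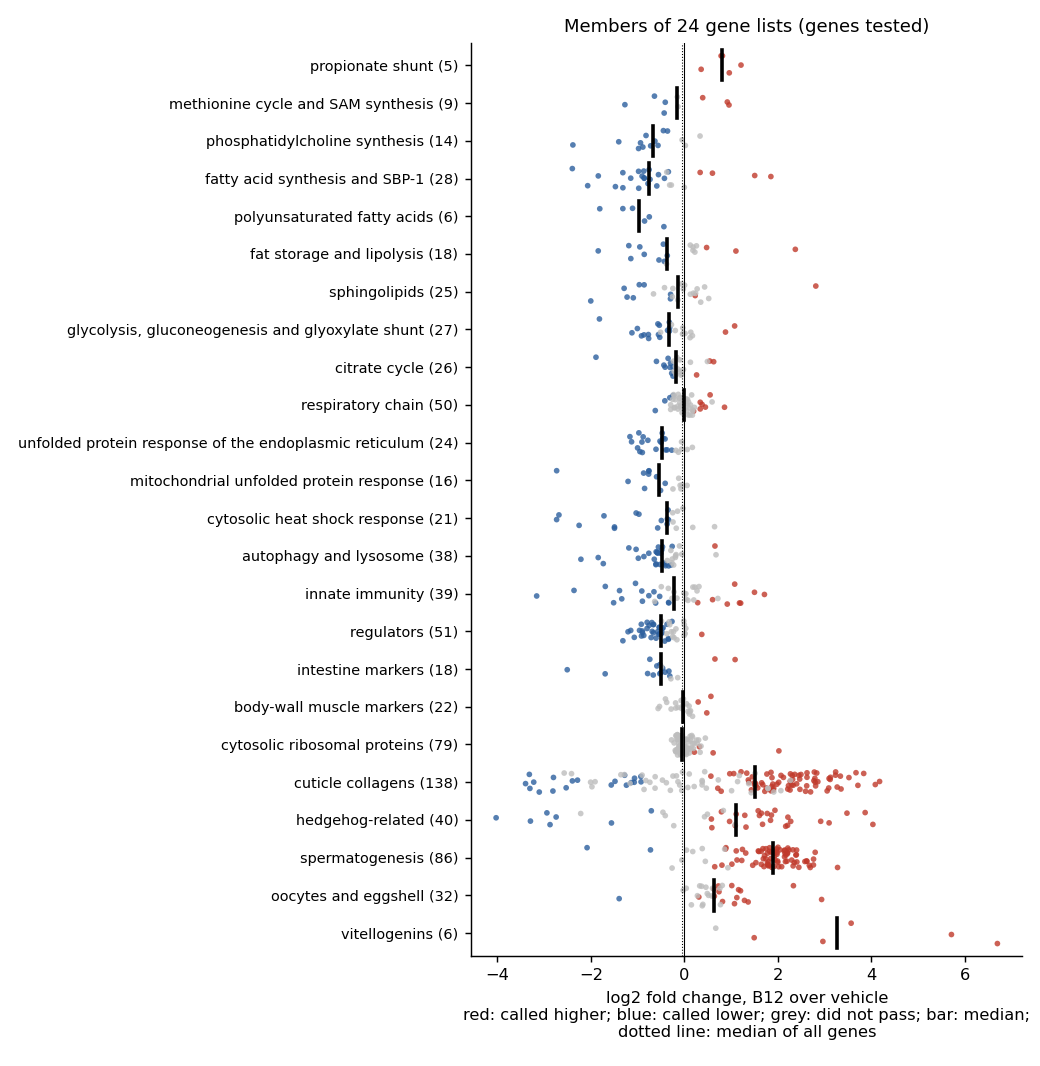
Log2 fold changes, B12 over vehicle (x axis), of the tested members of 24 gene lists (rows, with the number tested), 1 point per gene, red if called higher, blue if called lower and grey if not passed. Black bars mark list medians, which run from -0.98 for polyunsaturated fatty acids to 3.27 for vitellogenins, and the dotted line the median of all genes.

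Stress-response genes were lower with B12, across compartments. The endoplasmic reticulum's response to unfolded proteins had falls in 18 of 24 genes and no call higher (median -0.48). The chaperone *hsp-4*, the BiP homologue that reports this response (chromosome II, 7350112 to 7352645), had 513, 466 and 459.6 CPM in the B12 libraries, 945, 871 and 882 CPM in the vehicle libraries and 311, 345 and 344 CPM in the wild-type libraries. The 3 groups did not overlap, and the B12 values lay between vehicle and wild type (-0.91 ± 0.08, adjusted p = 3.03e-05). Its sensors *ire-1* (-0.97 ± 0.08) and *atf-6* (-0.90 ± 0.12), the transcription factor *xbp-1* (-0.50 ± 0.13) and the GRP94 homologue *enpl-1* (-1.16 ± 0.09) fell with it. The list held 1.34%, 1.28% and 1.31% of the counts in the B12 libraries, 1.88%, 1.83% and 1.81% in the vehicle libraries and 1.55%, 1.49% and 1.38% in the wild-type libraries, and here the B12 libraries were below wild type as well.

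In the mitochondrial unfolded protein response 10 of 16 genes fell and none was called higher, with its regulator *atfs-1* at 49.9 ± 0.549 CPM with B12 and 115 ± 6.74 CPM with vehicle, and the cytosolic heat shock list had 14 falls of 21 and no rise. The small heat shock gene *hsp-16.2* (-2.68 ± 0.28) and the regulator *hsf-1* (-0.57 ± 0.09) were among the falls. Counts of hsp-16 genes are uncertain, since they share near-identical copies. Autophagy and lysosome genes fell in 26 of 38 cases (median -0.47). The list held 1.69%, 1.62% and 1.62% of the counts in the B12 libraries, 2.06%, 2.28% and 2.11% in the vehicle libraries and 2.01%, 2.53% and 2.14% in the wild-type libraries. Vehicle and wild type overlapped, and the B12 libraries were below both. *sqst-1*, the p62 homologue that carries cargo to autophagosomes (chromosome IV, 12034282 to 12036891), had 73.4, 63.3 and 76.6 CPM in the B12 libraries, 360.0, 309.8 and 319 CPM in the vehicle libraries and 89.6, 72.3 and 92.3 CPM in the wild-type libraries, with B12 and wild type overlapping below vehicle (-2.21 ± 0.12, adjusted p = 2.29e-06). The autophagy genes *atg-13* (-0.87 ± 0.16) and *atg-18* (-0.64 ± 0.08), the lysosomal membrane protein *lmp-1* (-0.98 ± 0.11) and the regulator *hlh-30* (-0.42 ± 0.07), the TFEB homologue, fell.

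Metal-response genes included *cdr-4*, a cadmium-responsive gene (chromosome V, 12407366 to 12408625), with 49.0, 37.9 and 59.3 CPM in the B12 libraries, 739, 621 and 639 CPM in the vehicle libraries and 54.8, 30.5 and 39.3 CPM in the wild-type libraries. The vehicle libraries stood alone above both other groups, and the log2 fold change was -3.77 ± 0.23 (adjusted p = 8.18e-06). *cdr-2* changed by -2.73 ± 0.20 and the metallothionein *mtl-2* by 1.09 ± 0.14, and the list had 11 falls and 2 rises among 24 genes, or 1 rise without any 1 of the B12 libraries, vehicle replicate 1 or vehicle replicate 3. In the oxidative stress list 10 of 35 fell (28.6%), 6 without B12 replicate 2 and 17 on log2(TPM + 1), and 6 rose; *skn-1* itself, its main regulator, did not pass (-0.18, adjusted p = 0.107; named after its value was seen).

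Of 39 immune genes 15 fell (38.5%, against 23.8% over all genes) and 8 rose (20.5%, under the 22.6% over all genes). The falls included *irg-6* (-3.16 ± 0.29), a gene induced by infection, the lectin *clec-85* (-1.69 ± 0.12) and the saposin *spp-18* (-1.34 ± 0.14). Among the rises were the lysozyme *ilys-5* and the saposin *spp-4* (1.55 ± 0.12). *ilys-5* had 734, 761 and 738 CPM in the B12 libraries against 209.7, 259.9 and 211 CPM in the vehicle libraries. 2 detoxification families did the same. Of 64 cytochrome P450 genes (cyp) 24 fell (37.5%) and 12 rose, and of 62 glucuronosyltransferase genes (ugt) 22 fell (35.5%) and 13 rose. In both families the share of falls was above the 23.8% over all genes, and the share of rises was under the 22.6%. Of 35 glutathione transferase genes (gst) 9 rose and 9 fell (25.7% each), near the shares over all genes. The glutathione transferase *gst-10*, which conjugates lipid peroxidation products, rose. It had 387, 375 and 351 CPM in the B12 libraries against 89.4, 108 and 88.7 CPM in the vehicle libraries.

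Among genes averaging 5 CPM or more in the mutant libraries and having a symbol of letters, hyphen and number, the largest rises came from a block of pud genes, named as proteins upregulated in daf-2 mutants, on chromosome V. *pud-4* (WBGene00017498, WBcel235 chromosome V, 2326678 to 2327282) was first, with 88.2, 96.0 and 149.6 CPM in the B12 libraries, 0.273, 1.38 and 0.370 CPM in the vehicle libraries and 0.768, 0.729 and 1.48 CPM in the wild-type libraries. It was low in both other groups (7.33 ± 0.45, adjusted p = 1.19e-05). *pud-3* next to it had 318, 343 and 547 CPM in the B12 libraries, 2.52, 4.64 and 2.72 CPM in the vehicle libraries and 1.42, 1.40 and 3.96 CPM in the wild-type libraries. *pud-1.2* had 1128, 1424 and 2249 CPM in the B12 libraries against 10.2, 25.0 and 26.2 CPM in the vehicle libraries. The B12 values of these genes were far above all other libraries. The 5 called pud genes span chromosome V from 2322038 to 2329954. Kallisto divides reads between near-identical copies, so the pud-1 and pud-2 values are uncertain: *pud-1.1*, named after its values were seen, was listed at 4061, 1256 and 0 counts in the B12 libraries and was called without B12 replicate 3 (adjusted p = 0.0341) and with a replicate block (adjusted p = 0.0104), but not in the reported fit (adjusted p = 0.121). Besides pud and vit genes, the 10 largest rises held the astacin protease *nas-27* (4.81 ± 0.41), the lectin *clec-239* (4.38 ± 0.33), the glycosyltransferase *gly-1* (4.30 ± 0.41) and the collagens *col-68* (4.18 ± 0.42) and *col-152* (4.08 ± 0.95).

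Within the same limits, the largest falls began with a pair of neighbours on chromosome IV. *dod-21* (WBGene00007873, WBcel235 chromosome IV, 12936738 to 12937988) had 1.83, 0.344 and 1.47 CPM in the B12 libraries, 247, 199 and 219 CPM in the vehicle libraries and 0, 0.182 and 0 CPM in the wild-type libraries. *cld-1*, the tested gene before it (chromosome IV, 12935011 to 12936271), had 1.16, 1.72 and 0.629 CPM in the B12 libraries, 220.2, 189.5 and 179.9 CPM in the vehicle libraries and 0.886, 0 and 0.414 CPM in the wild-type libraries. Both encode CUB-like domain proteins, both were high in all vehicle libraries, and both were close to 0 in the other groups (-7.48 ± 0.39 and -7.38 ± 0.43). *dod-24*, further along (chromosome IV, 12940106 to 12941354) and picked after its value was seen, changed by -0.89 ± 0.19. *sdz-35* (-5.83 ± 0.27), *warf-1* of the ARF family of small GTPases (-5.26 ± 0.23) and *sir-2.3*, a sirtuin (-4.16 ± 0.38), were the next largest there. *F22E5.6* (-6.60 ± 0.28) and *F33H12.7* (-4.96 ± 0.28), which have a sequence name only and were picked after their values were seen, also fell further than *sir-2.3*. *warf-1* had 11.0, 6.95 and 7.76 CPM in the B12 libraries, 387, 308 and 295 CPM in the vehicle libraries and 5.49, 3.70 and 3.43 CPM in the wild-type libraries, with the B12 values above all wild-type values and far below vehicle. The other falls among the 10 largest were *grl-21* (-4.03 ± 0.82), *cpt-3*, *cdr-4*, *dod-20* (-3.73 ± 0.36) and *pqn-94* (-3.59 ± 0.57). In the DAF-16 and dauer list as a whole, 16 of 31 fell (51.6%, against 23.8% over all genes) and 8 rose (25.8%, near the 22.6% over all genes). The list's share of the counts was nevertheless higher with B12. It was 0.461%, 0.487% and 0.697% in the B12 libraries, 0.283%, 0.258% and 0.267% in the vehicle libraries and 0.221%, 0.202% and 0.194% in the wild-type libraries. *daf-16* (-0.70 ± 0.09), the insulin receptor *daf-2* (-0.99 ± 0.11), the steroid hormone receptor *daf-12* (-0.53 ± 0.08) and *daf-36* (-1.38 ± 0.11), an oxygenase of dafachronic acid synthesis, fell.

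Transcription regulators of metabolism and stress fell as a group. Of 51 tested, 34 fell and 1 rose (median -0.50), the rise being *nhr-68*, whose call 1 library could end, as given above. *nhr-49*, the PPAR-like receptor that controls fat use and *fat-7* (chromosome I, 9869651 to 9874680), averaged 104 ± 3.86 CPM with B12 and 231 ± 17.6 CPM with vehicle, against 115 ± 6.55 CPM in wild type (SD, n = 3 each), with each B12 library just below each wild-type library and vehicle above both (-1.15 ± 0.08, adjusted p = 1.06e-05). *nhr-80*, also of the HNF4 family and a regulator of desaturases, changed by -0.87 ± 0.12, *nhr-8* of cholesterol metabolism by -0.92 ± 0.11, *mxl-3* by -0.92 ± 0.16, and *elt-2*, the main GATA factor of the intestine, by -0.66 ± 0.13. *sbp-1* itself averaged 57.3 ± 2.45 CPM with B12 and 96.6 ± 4.05 CPM with vehicle, against 48.0 ± 2.03 CPM in wild type.

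Nuclear hormone receptors, a family that has expanded strongly in nematodes, moved almost in one direction. Of 189 nhr genes tested, 64.6% fell and 3.17% rose, or 6 genes (median -0.71 against -0.04 over all genes). 18 were below and 2 above wild type in the B12 libraries, and 102 above and 8 below it in the vehicle libraries. Over all genes 6.14% were below and 7.28% above wild type in the B12 libraries, and 18.3% each way in the vehicle libraries. *nhr-115* had 11.2, 7.99 and 11.0 CPM in the B12 libraries, 29.7, 35.4 and 32.5 CPM in the vehicle libraries and 8.33, 6.01 and 7.39 CPM in the wild-type libraries. *nhr-90* had 13.4, 11.8 and 12.3 CPM in the B12 libraries, 27.8, 33.3 and 30.4 CPM in the vehicle libraries and 11.9, 10.4 and 12.7 CPM in the wild-type libraries. In both, B12 and wild-type values overlapped and vehicle values were above them. Many lie in arrays on chromosome V, where 9 adjacent called genes from *nhr-56* to *cyp-33C3* (2219004 to 2244865, 7 of them nhr genes) and 8 from *F16B4.2* to *nhr-238* (1601038 to 1629432) all fell, with median log2 fold changes of -0.90 and -0.89.

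**Figure D4:**
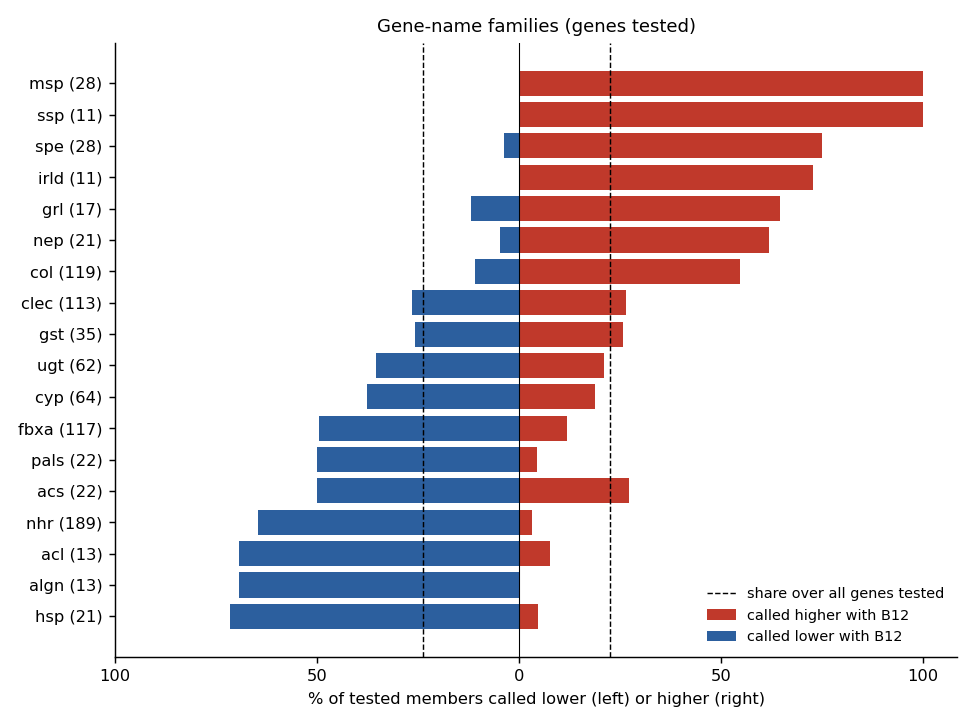
Share of the tested members of 18 gene-name families (rows, with the number tested) that were called higher (red, to the right) or lower (blue, to the left) with B12, in percent. Dashed lines mark the shares over all 14798 genes, 22.6% higher and 23.8% lower; sperm families reach 100% higher and nhr, acl, algn and hsp lie far to the left.

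Several other families moved mostly one way. The acyltransferases of the acl family, which build phospholipids, fell in 9 of 13 cases, with *acl-12* at 60.1, 56.7 and 73.0 CPM in the B12 libraries against 190.1, 179.9 and 204 CPM in the vehicle libraries. The glycosylation genes of the algn family, which assemble the sugar chain for proteins of the endoplasmic reticulum, fell in 9 of 13. F-box genes of the fbxa family fell in 58 of 117 and rose in 14, with 9 rises without B12 replicate 2, vehicle replicate 2 or vehicle replicate 3. The pals genes, induced by intracellular infection, fell in 11 of 22, among them *pals-23* (-1.09 ± 0.13). The P-glycoprotein *pgp-9* (chromosome V, 17755892 to 17764751) had 149, 129 and 134 CPM in the B12 libraries, 710.3, 693 and 633 CPM in the vehicle libraries and 77.3, 65.2 and 62.5 CPM in the wild-type libraries, and the groups did not overlap. *pgp-1* changed by -2.50 ± 0.14. Neprilysin-like peptidases (nep) rose in 13 of 21, insulin/EGF-receptor L domain genes (irld) in 8 of 11, and C-type lectins (clec) split into 30 rises and 30 falls among 113, near the shares over all genes.

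Sperm genes rose with maternal B12, and oocyte and eggshell genes did so in part. The stem cell, meiosis and germ granule lists had shares of rises at or under that over all genes. L4 hermaphrodites make sperm before they switch to oocytes. Of 86 spermatogenesis genes 76 rose and 2 fell (median 1.89), or 1 without B12 replicate 1 or 2 or any vehicle library; all 28 of 28 tested major sperm protein genes (msp) and all 11 of 11 ssp genes rose. Many msp genes are near-identical, so single values are uncertain. *spe-10*, a palmitoyltransferase of sperm organelles (chromosome V, 10384250 to 10385740), had 6.53, 8.47 and 9.78 CPM in the B12 libraries, 1.30, 1.63 and 1.73 CPM in the vehicle libraries and 6.09, 4.37 and 6.33 CPM in the wild-type libraries. The B12 libraries were above all others (2.40 ± 0.25, adjusted p = 6.69e-05). The list held 0.235%, 0.246% and 0.203% of the counts in the B12 libraries, 0.0974%, 0.0466% and 0.0667% in the vehicle libraries and 0.132%, 0.175% and 0.219% in the wild-type libraries. The germ-line Argonautes of the male pathway, *alg-3* (1.54 ± 0.31) and *alg-4* (1.53 ± 0.37; picked after its value was seen), rose with it. The genes *fog-1* and *fog-3*, which act earlier to set the sperm fate, did the opposite. *fog-1* had 2.56, 2.41 and 2.45 CPM in the B12 libraries, 11.7, 10.9 and 13.8 CPM in the vehicle libraries and 3.90, 1.70 and 1.95 CPM in the wild-type libraries, with B12 and wild type overlapping. *fog-3* changed by -1.57 ± 0.36. Most of their list, sex determination and sperm fate, did not pass: of 20 genes 6 fell, 1 rose and 13 had no call (median -0.12).

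Oocyte and eggshell genes rose in 15 of 32 cases and fell in 1 (median 0.64), but 7 or 8 rose without B12 replicate 1, vehicle replicate 2 or vehicle replicate 3. *perm-4*, a component of the eggshell's inner layers (chromosome IV, 1121494 to 1125107), had 37.1, 29.3 and 22.6 CPM in the B12 libraries, 10.6, 3.39 and 3.83 CPM in the vehicle libraries and 5.67, 11.7 and 14.9 CPM in the wild-type libraries, and *perm-2* changed by 2.94 ± 0.42. The translational repressor *gld-1*, which acts as germ cells enter meiosis, averaged 108 ± 35.4 CPM with B12 and 47.0 ± 11.3 CPM with vehicle, against 96.1 ± 22.4 CPM in wild type (SD, n = 3 each), with B12 and wild-type libraries overlapping and each B12 library above each vehicle library. Stem cell, meiosis and germ granule lists had shares of rises at or under the 22.6% over all genes, with 3 of 17, 7 of 35 and 6 of 27 rises. Their shares of falls, 11.8%, 2.86% and 18.5%, were under the 23.8% over all genes. The stem cell list had 1 rise without B12 replicate 1 or 2 or any vehicle library and 6 without B12 replicate 3, meiosis had 4 without B12 replicate 1 or 2 or vehicle replicate 2, and germ granules had 3 without B12 replicate 2 or vehicle replicate 2 or 3. On log2(TPM + 1) the stem cell list had 1 rise and 3 falls, and germ granules 3 rises and 5 falls.

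Yolk genes, which the intestine switches on at the turn to adulthood, rose strongly. *vit-3* (chromosome X, 3567355 to 3572549) had 477, 262 and 327 CPM in the B12 libraries, 4.91, 4.02 and 1.42 CPM in the vehicle libraries and 20.5, 62.8 and 127 CPM in the wild-type libraries. *vit-4* had 254, 118 and 163 CPM in the B12 libraries against 4.37, 5.15 and 0.740 CPM in the vehicle libraries. *vit-6* had 1307, 640.0 and 922 CPM in the B12 libraries, 70.1, 99.6 and 72.3 CPM in the vehicle libraries and 279, 650.5 and 602 CPM in the wild-type libraries. B12 values exceeded all vehicle values in each, by log2 fold changes of 6.70 ± 0.81, 5.71 ± 0.90 and 3.57 ± 0.39. 5 of 6 vitellogenins rose, and *vit-2*, named after its value was seen, did not pass (0.67 ± 0.38, adjusted p = 0.187), except without B12 replicate 2 (adjusted p = 0.0415) or wild-type replicate 1 (adjusted p = 0.0427) or with the 6 mutant libraries alone (adjusted p = 0.0464). B12 values of the list varied among libraries, with 0.292%, 0.144% and 0.205% of the counts in the B12 libraries, 0.0424%, 0.0565% and 0.0427% in the vehicle libraries and 0.0493%, 0.115% and 0.113% in the wild-type libraries. Counts of these genes may be divided among close copies.

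**Figure D5:**
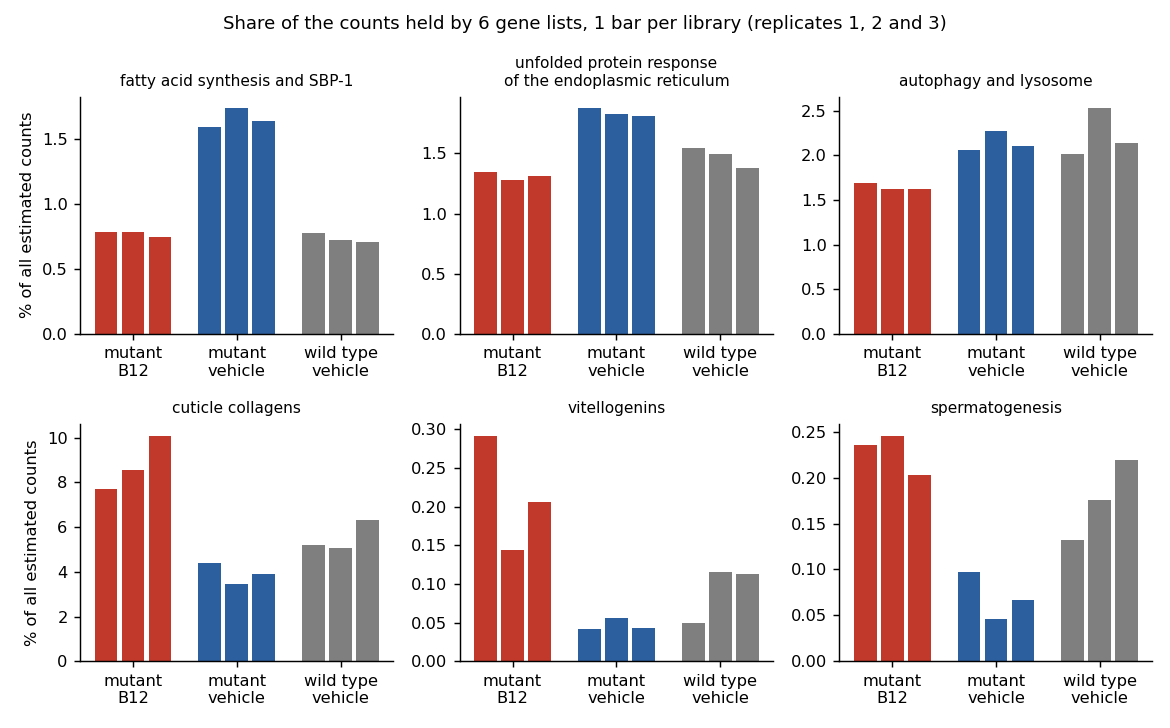
Percent of all estimated counts (y axes) held by 6 gene lists in each library, replicates 1 to 3 from left to right within the mutant B12, mutant vehicle and wild-type vehicle groups. Fatty acid synthesis and the endoplasmic reticulum response are highest in the vehicle libraries, and collagens, vitellogenins and sperm genes are lowest there, apart from wild-type replicate 1 for vitellogenins, at 0.0493%. Autophagy and lysosome genes are lowest in the B12 libraries.

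Cuticle genes rose next. Collagens, the material of the new cuticle made at each molt, rose in 76 of 138 cases and fell in 19 (median 1.51); 31 fell without wild-type replicate 1. They held 7.71%, 8.57% and 10.1% of the counts in the B12 libraries, 4.38%, 3.45% and 3.91% in the vehicle libraries and 5.21%, 5.06% and 6.33% in the wild-type libraries. The 3 B12 libraries were above all others. Of the 138 collagens 57 were higher and 10 lower with B12 than in wild type, against 7.28% higher and 6.14% lower over all genes. *col-71* had 3119, 3844 and 4149.7 CPM in the B12 libraries, 777, 501 and 526 CPM in the vehicle libraries and 1436, 2113 and 2299.6 CPM in the wild-type libraries, and *dpy-4* changed by 1.98 ± 0.19. *bli-1*, of the struts of the adult cuticle, differed, rising by 0.97 ± 0.15 but staying below wild type (-0.82 ± 0.15, adjusted p = 0.00540). Hedgehog-related genes, secreted by epidermal cells in step with the molts, rose in 25 of 40 cases and fell in 7 (median 1.10). *wrt-4* had 614, 835 and 850.2 CPM in the B12 libraries against 63.3, 42.7 and 51.6 CPM in the vehicle libraries. *wrt-6* had 713, 893 and 871 CPM in the B12 libraries against 126, 92.3 and 110.3 CPM in the vehicle libraries. *grl-21* went the other way, with 3.48, 1.38 and 3.98 CPM in the B12 libraries against 53.8, 42.9 and 48.0 CPM in the vehicle libraries.

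Molting genes themselves split, 13 of 33 higher and 13 lower, with *mlt-8* (1.27 ± 0.13) and the patched-related *ptr-18* (2.18 ± 0.22) up and the molting regulators *nhr-23* (-1.31 ± 0.23) and *myrf-1* (-1.07 ± 0.11) down. Timing genes of larval fates fell in 12 of 19 cases. Among them were *hbl-1* (-1.30 ± 0.13), *lin-41* (-1.39 ± 0.21) and *lin-14* (-0.59 ± 0.08), all known to hold back later fates. Sperm, yolk, collagen and timing genes are known to change as L4 larvae age, and the part of larval age in these results was not tested.

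Few markers of muscle and neurons passed the test. Body-wall muscle markers had 3 rises and 0 falls among 22 (median -0.03), with 3 falls without B12 replicate 1, and on log2(TPM + 1) 2 rose and 3 fell. Neuron markers had 2 rises and 6 falls among 34 (median -0.05), with 3 falls without B12 replicate 2 and 1 rise without any library but B12 replicate 3. Intestinal markers fell in 13 of 18 cases (median -0.50), such as *gtl-1* (-1.69 ± 0.15) and the acid phosphatase *pho-1* (-0.79 ± 0.09), beside the fall of lipid and stress genes that the intestine expresses. The part of intestinal RNA in those falls was not tested. Of growth genes, 4 of 79 cytosolic ribosomal protein genes rose (2 without B12 replicate 1 or vehicle replicate 3, 7 without wild-type replicate 1) and 0 fell, while on log2(TPM + 1) 1 rose and 17 fell. Of 31 proteasome genes 6 rose (19.4%, under the 22.6% over all genes), although the list's median changed sign on log2(TPM + 1). Neuropeptide genes fell in 17 of 99 cases (17.2%, under the 23.8% over all genes; 9 or 10 without B12 replicate 1 or 2 or vehicle replicate 2, and 29 on log2(TPM + 1)), with *nlp-12* at 27.3, 22.4 and 29.0 CPM in the B12 libraries against 65.9, 72.5 and 65.8 CPM in the vehicle libraries.

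Called genes lay on every chromosome. The share higher was greatest on chromosome IV, 27.9% of 2515 genes, and smallest on X, 18.7% of 2053; the share lower was greatest on V, 27.8% of 2964, and smallest on I, 19.1% of 2384. There were 68 runs of at least 5 neighbouring tested genes called in one direction, 37 higher and 31 lower. The longest runs of rises, 9 genes each, were on chromosome IV at 5246234 to 5274156 and 5294957 to 5316906, and held msp genes. A run of 7 rises on chromosome II (3388280 to 3420672) held 5 neprilysin genes, and one of 6 falls there (1597906 to 1621280) held bath and fbxa genes with a median log2 fold change of -2.19. These are descriptions of position without a test.

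With the spermatogenesis level as a covariate, 86 genes kept a call, 12 higher and 74 lower, all in the direction found without it. The groups account for an r squared of 0.877 of that level. The variance inflation from it, 8.10-fold, is that of the covariate's own coefficient, and that of the B12 effect was not computed. With group and level so closely tied, a lost call alone does not show a smaller effect. Kept falls included *fat-5* (-2.70), *fat-7* (-2.11), *fat-2* (-1.60), *plin-1* (-2.22), *lpin-1* (-1.69), *hsp-4* (-1.17), *sqst-1* (-2.45), *cdr-4* (-3.56), *pgp-9* (-2.13), *dod-21* (-7.88) and *sdz-35* (-6.45), each a log2 fold change with the covariate. Kept rises included *acdh-1* (1.32, adjusted p = 0.0481), *acox-1.2* (2.53), *gst-10* (2.08), *ilys-5* (2.02), *asm-3* (4.84), *lipl-1* (3.67) and *pud-4* (9.61). Of the lists, the shunt kept 1 of 5 rises, fatty acid synthesis 3 of 20 falls and collagens 0 of 76 rises. Their median log2 fold changes with the covariate were 0.95 for the shunt (without it 0.81), -0.42 for fatty acid synthesis (without it -0.77) and 0.29 for collagens (without it 1.51).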

How the data were processed

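RNA of whole L4 animals was extracted with TRIzol and, per the labels' protocols, made into libraries with NEBNext Ultra reagents. Transcripts of WormBase release WS245 were quantified with kallisto 0.46.0, per the submitters' processing notes. The sources used here do not give strand handling, and reads of overlapping or antisense genes therefore cannot be separated. Per the file headers, the authors deposited estimated counts for each transcript, without normalization. A deposited CPM table was not used.

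Estimated counts were summed per gene and rounded, giving 20447 genes, of which 20168 were matched to WBcel235; the other 279 held 0.165% of the counts. edgeR 4.0.16 in R 4.3.3 was run with filterByExpr, TMM scaling and robust quasi-likelihood fits over all 9 libraries, with Benjamini-Hochberg adjustment over the 14798 genes tested and calls at an adjusted p under 0.05. The wild-type libraries add to the estimate of the spread. CPM values are TMM-normalised, and an SE (after ±) is the size of the log2 fold change over the root of F. The procedure was checked on simulated data in which far fewer genes changed than were called here. That check therefore does not cover the scaling when so large a share of genes differs. Replicates of each group differed by more than sampling noise.

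The genes, 54 lists and tests were chosen with earlier results of these data known, so lists are given by counts and medians without a test. Named are a panel of 16 genes around B12, methionine and lipids, the 10 largest rises and 10 largest falls (groups apart, at least 5 CPM on average in the mutant libraries, a symbol of letters, hyphen and number), up to 4 called members with the smallest adjusted p per list and per gene-name family of at least 10 tested genes, and called regulators; a gene outside this rule is marked where it is named, except those given only to mark the ends of a run. As alternatives the fit was repeated with upper quartile or RLE scaling, with no filter or one of 5 CPM in 3 libraries, with the 6 mutant libraries only, in DESeq2 1.42.0, with length-scaled counts, with a replicate block, in limma 3.58.1 on log2(TPM + 1) of TPM computed from the counts, with the spermatogenesis level as a covariate, and without each library in turn. Python 3.11.15 with numpy 2.4.6, pandas 2.3.3 and matplotlib 3.10.9 was also used.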

Additional observations from a re-analysis of the deposited data

How the results depend on the processing

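Counts of called genes stayed within 1.5 times the reported 6866 (3338 higher, 3528 lower) under every alternative run except the covariate for the spermatogenesis level, which left 86 (12 higher, 74 lower). Leaving out 1 library gave 5495 to 7084 calls, 2745 to 3433 higher and 2737 to 3651 lower. The split of calls moved with upper quartile scaling, to 55.7% higher, and with log2(TPM + 1), to 36.1%, against 48.6%. Of 54 list medians, 9 changed sign on log2(TPM + 1), 20 with the covariate and 0 to 8 under each other alternative. Among lists with a median at least 0.1 from 0 and called members mostly in one direction, a rule set after seeing the data, they did so on log2(TPM + 1) for branched-chain amino acid breakdown (-0.0188) and the proteasome (-0.0393). With the covariate these were peroxisomal beta-oxidation (0.0735), the citrate cycle (0.0333), the proteasome (-0.0815), spermatogenesis (-0.0243), oocytes and eggshell (-0.409) and neuropeptides (0.105). The covariate is the mean of the spermatogenesis list's own tested genes, so a median near 0 for that list was fixed in advance. Log2 fold changes of named genes changed sign with the covariate for *sams-1* (0.17), *alg-3* (-0.0535), *alg-4* (-0.40), *col-152* (-1.20) and *perm-4* (-0.81), none of them called there; the cause was not tested. On log2(TPM + 1), *nhr-68*, *sams-3* and *elo-9* lost their calls (adjusted p = 0.0746, 0.129 and 0.201), and *mmcm-1*, *pcca-1* and *pccb-1* were called lower. The labels do not say whether replicate numbers pair the samples. Deviations of same-numbered libraries correlated at -0.22 to 0.37 between groups, which with 3 libraries a group cannot exclude a shared batch. A replicate block gave 6617 calls, 3216 higher and 3401 lower, ended the call of *elo-9* (adjusted p = 0.0564), added one for *pud-1.1* (adjusted p = 0.0104) and changed no other call of a named gene. With 3 libraries a group, no library of wild-type larvae from B12-treated mothers and larval age not resolved, an effect of B12 in the mutant alone cannot be told apart from one in any genotype. With the 5 CPM filter no male neuron marker was left, so that list has no value there. Genes near the filter and near-identical copies carry the least certain values.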

Other observations

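Of 16 hypodermis and seam markers 10 fell (62.5%, against 23.8% over all genes) and 3 rose with maternal B12, 6 falling without vehicle replicate 3. The list's share of the counts was nevertheless higher with B12. It was 0.527%, 0.603% and 0.626% in the B12 libraries against 0.415%, 0.335% and 0.378% in the vehicle libraries. The GATA factor *elt-3* was among the falls, with 16.6, 19.8 and 25.1 CPM in the B12 libraries against 51.0, 54.8 and 56.5 CPM in the vehicle libraries, and the groups did not overlap. The cuticle collagens *dpy-13* (1.89 ± 0.21) and *rol-6* (1.06 ± 0.17) were among the rises. In the list for vulva and adult epidermis 7 of 16 rose, such as *col-38* (2.26 ± 0.25) and *col-49* (2.83 ± 0.36).

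In the sex determination list 1 of 20 genes rose, 13 did not pass and 6 fell (30.0%, against 23.8% over all genes). Besides *fog-1* and *fog-3*, the dosage compensation gene *sdc-3* (-1.04 ± 0.19) was among the falls. Of 34 genes of DNA replication and the cell cycle 6 rose (17.6%, under the share over all genes), 3 without B12 replicate 1 or vehicle replicate 2 and 2 on log2(TPM + 1), and the cyclin D gene *cyd-1* fell, with 2.07, 3.24 and 3.28 CPM in the B12 libraries against 15.8, 15.8 and 15.2 CPM in the vehicle libraries.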
